A study of Mus musculus with 4 samples.

Results

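The small leucine-rich proteoglycans are secreted matrix proteins built around a short row of leucine-rich repeats. The 10 genes Dcn, Bgn, Aspn, Lum, Fmod, Kera, Prelp, Omd, Ogn and Epyc were chosen by gene symbol, and each was found as a single row among the 32285 genes of both deposited matrices. The rule itself uses no measured value. The matrices hold CITE-seq data, in which mRNA and an oligonucleotide-tagged antibody to CD24 are counted in the same cell. They come from a single young (6 months) and a single old (24 months) animal, both INK-ATTAC and both untreated. INK-ATTAC mice carry an inducible caspase 8 driven by a piece of the p16 promoter, and both libraries share this transgene. Femur and tibia were digested, marrow and bone fractions were joined, and cells were depleted of blood lineages and sorted as live and CD45-. Digestion and sorting set which cells were seen, so the numbers of cells describe the sorted suspension. With 1 mouse per age, age, animal and library cannot be told apart.

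These proteoglycans bind fibrillar collagen and set how fibrils grow and space, and several also bind growth factors of the TGF-beta family. By sequence and exon layout the family is sorted into classes. Class I holds Dcn (decorin), Bgn (biglycan) and Aspn (asporin). Class II holds Lum (lumican), Fmod (fibromodulin), Kera (keratocan), Prelp and Omd (osteomodulin or osteoadherin), and class III holds Ogn (osteoglycin or mimecan) and Epyc (epiphycan). Decorin, biglycan and epiphycan carry chondroitin or dermatan sulfate chains, whereas lumican, fibromodulin, keratocan and osteomodulin can carry keratan sulfate. Tendon, cartilage, skin and bone are their best known sites.

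After filtering, 10063 young and 5607 old cells were kept, with 81076421 and 66702846 RNA UMIs (unique molecular identifiers, which count captured mRNA molecules) and medians of 6385 and 9711 UMIs per cell. The libraries shared 19 kept barcodes. Cells were put into 6 mesenchymal groups by marker genes, none of which is a proteoglycan of the family, and each name below means a likeness to that cell type. The marrow stromal group held 3066 young and 1889 old cells, the fibroblast group 2408 and 1021, the osteoblast group 639 and 412, the tendon group 185 and 113, the chondrocyte group 171 and 53, and the pericyte or smooth muscle group 73 and 68. All markers of a group's own list were found in that group in both libraries, and the endothelial list took no cell. Free RNA was visible, since 38.9% of 723 young and 40.5% of 481 old blood cells (erythroid, B-lineage and neutrophil) held a Dcn UMI. Median depths of these blood cells ran from 3294 UMIs (young neutrophil) to 16703.5 UMIs (old erythroid), around those of the mesenchymal groups, which ran from 4045 to 13883. Of 120 shares of cells with a UMI (10 genes, 6 groups, 2 mice), 91 had an interval above the upper bound of the blood cells, and 86 did so at 2000 UMIs per cell.

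All 10 proteoglycans were higher in the tendon group than in the mean of the other 5 groups, as were 9.63% of all genes tested. A tendon-like cell gave more of its mRNA to the family than any other group did, namely 3.55% (young) and 3.45% (old) of its UMIs. The fibroblast group gave 2.22% in both, the chondrocyte group 1.38% and 2.89%, the osteoblast group 1.37% and 1.01%, the marrow stromal group 0.496% and 0.535%, and the pericyte or smooth muscle group 0.298% and 0.197%. At 2000 UMIs per cell, the median tendon-like cell held 7 of the 10 mRNAs in either library, against 2 in the pericyte or smooth muscle group. Dcn was the most abundant family member in the tendon, fibroblast, osteoblast and chondrocyte groups, and it ranked 2nd among all genes in the tendon and fibroblast groups of both mice.

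The groups were compared on UMIs summed per mouse and group, with edgeR's quasi-likelihood test over 13047 genes and Benjamini-Hochberg adjustment. The p-values thus rest on 2 mice and on spread partly shared between genes. In the tendon group 10 of 10 members were higher and 0 lower, beside 9.63% and 2.97% of all genes tested. The chondrocyte group had 7 higher (background 13.2%) and 1 lower (background 8.49%). The osteoblast group had 4 higher (background 14.7%) and 2 lower (background 10.8%), and the fibroblast group 3 higher (background 17.3%) and 2 lower (background 10.1%). In the marrow stromal group 0 were higher (background 25.7%) and 5 lower (background 18.1%), and in the pericyte or smooth muscle group 0 were higher (background 13.2%) and 6 lower (background 11.8%). Over the 8 members with UMIs in every group (all but Kera and Epyc), the median log2 difference was 2.29 in the tendon and 1.54 in the chondrocyte group, where all genes had a median of 0.03. It was 0.79 in the fibroblast group (all genes 0.03), 0.55 in the osteoblast group (0.04), -1.87 in the marrow stromal group (0.08) and -3.03 in the pericyte or smooth muscle group (-0.17). The fibroblast count went to 5 when predicted doublets were removed and to 6 with no filter on low counts, the additions including Aspn and Lum. The chondrocyte count of 7 went to 5 under DESeq2, to 6 under the stricter marker cut and to 8 with no filter. Lum was among the calls lost there, with an adjusted p of 0.0672 under DESeq2 and 0.053 by edgeR under the stricter cut.

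**Figure D1:**
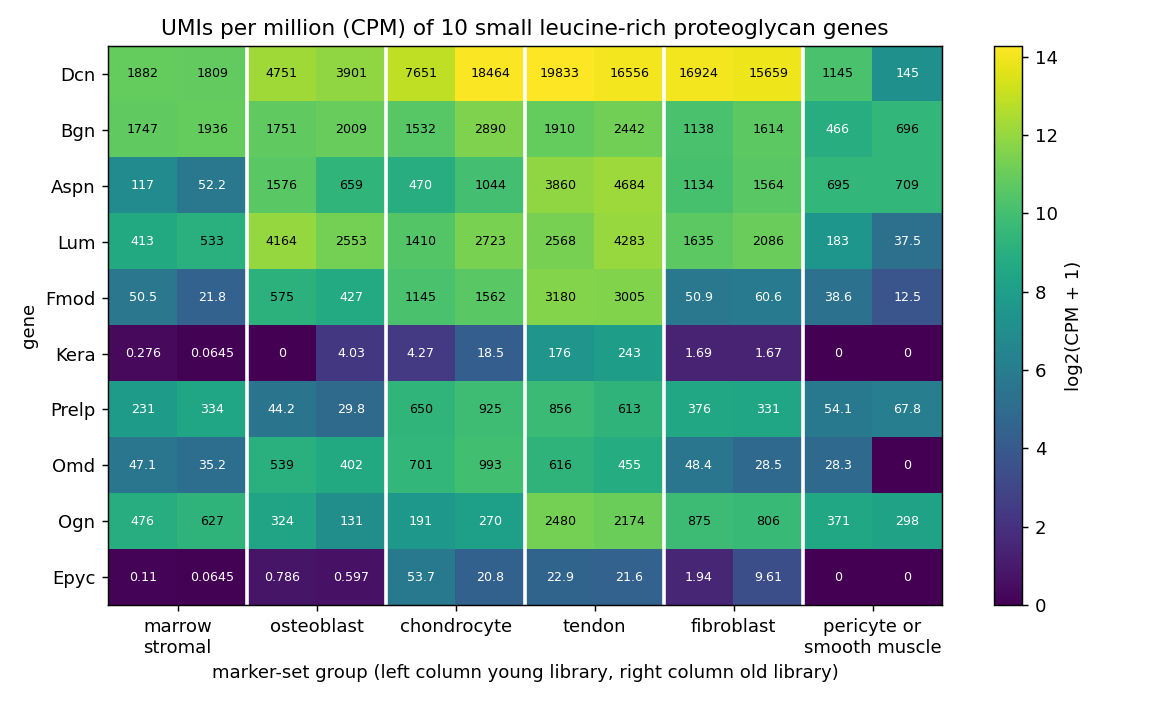
Level of each proteoglycan gene in each mesenchymal group, young library on the left and old on the right, printed in UMIs per 1000000 RNA UMIs and coloured by log2(CPM + 1). Dcn reaches 19833 in the young tendon group, Prelp is lowest of its row in the osteoblast and the pericyte or smooth muscle groups, and Kera exceeds 100 only in the tendon group.

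Decorin, the class I proteoglycan that binds collagen fibrils and TGF-beta, was high in tendon- and fibroblast-like cells of both mice. Within the old mouse, chondrocyte-like cells had the highest level. Levels are given as UMIs per 1000000 RNA UMIs of a group (CPM), and 3' UMI counts do not scale with transcript length. Dcn stood at 19833 CPM (young) and 16556 CPM (old) in the tendon group, 16924 and 15659 in the fibroblast group, 7651 and 18464 in the chondrocyte group, 4751 and 3901 in the osteoblast group, and 1882 and 1809 in the marrow stromal group. Both mice thus placed the marrow stromal group below those 4 groups, while the chondrocyte values of the mice lay far apart. The log2 difference from the other groups was 2.13 in the tendon group (SE 0.430, adjusted p = 0.00813), 1.96 in the fibroblast group (SE 0.433, adjusted p = 0.00616), 1.88 in the chondrocyte group (SE 0.454, adjusted p = 0.0134) and -2.00 in the marrow stromal group (SE 0.577, adjusted p = 0.016). Tendon and fibroblast groups did not differ beyond the spread (log2 difference 0.14, SE 0.636, adjusted p = 0.932). Under DESeq2 none of these 4 Dcn calls passed, with adjusted p between 0.0695 and 0.146. In the pericyte or smooth muscle group a single young cell held 86.1% of the 445 Dcn UMIs, and the share of cells with a UMI (28.8%, 95% interval 18.8 to 40.6) was no higher than that of the blood cells.

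Biglycan, which also binds collagen and growth factors, spanned the narrowest range of the 10 members over the groups. Bgn lay at 1747 and 1936 CPM (young and old) in the marrow stromal group, 1751 and 2009 in the osteoblast group, 1909.9 and 2442 in the tendon group, 1532 and 2890.2 in the chondrocyte group, and 466 and 696 in the pericyte or smooth muscle group. In the marrow stromal group of the old mouse it led the family, with 36.2% of all proteoglycan UMIs. Bgn was higher in the chondrocyte (log2 0.78, SE 0.132, adjusted p = 0.00164), tendon (0.57, SE 0.133, adjusted p = 0.0166) and osteoblast groups (0.48, SE 0.133, adjusted p = 0.0219). Without the mouse as a block the osteoblast and tendon calls did not pass, with adjusted p of 0.165 and 0.141. Taken alone, the young mouse gave a chondrocyte difference of 0.45 and the old mouse 1.02.

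Asporin, the class I member without a glycosaminoglycan attachment site of decorin's kind, set the pericyte or smooth muscle group apart from the marrow stromal group. Aspn reached 3860.5 CPM in the young and 4684 CPM in the old tendon group, and fell to 117 and 52.2 in the marrow stromal group. In the pericyte or smooth muscle group, where most other members were at their lowest, it stood at 695 and 709 and was found in 83.6% (95% interval 73.0 to 91.2) and 85.3% (74.6 to 92.7) of cells. The marrow stromal group was below the pericyte or smooth muscle group by a log2 difference of -3.20 (SE 0.510, adjusted p = 0.000724), and below the mean of all other groups by -4.14 (SE 0.486, adjusted p = 5.55e-05). The tendon group was above the others by 2.85 (SE 0.302, adjusted p = 0.000131) and above the fibroblast group by 1.65 (SE 0.469, adjusted p = 0.0421). An Aspn UMI was held by 9.98% (95% interval 8.94 to 11.1) and 8.31% (7.11 to 9.65) of marrow stromal cells, no more than the 10.8% and 12.9% of blood cells. Depth was not matched in these shares. At 2000 UMIs per cell they were 5.43% and 3.32%, against 4.48% and 2.89% of blood cells (upper bounds 6.33% and 4.89%).

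Lumican and osteomodulin were the class II members for which osteoblast-like and tendon-like cells did not differ beyond the spread. With this spread an equal level is not shown. Lum, a regulator of fibril diameter, stood at 4164 and 2553 CPM in the osteoblast group and at 2568 and 4283 CPM in the tendon group. Each mouse put a different one of these groups first, and the pair did not differ beyond its spread (log2 0.10, SE 0.494, adjusted p = 0.925). Against the mean of the other groups Lum was higher by 1.99 in the osteoblast group (SE 0.341, adjusted p = 0.00156) and by 1.86 in the tendon group (SE 0.344, adjusted p = 0.00487).

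Omd, whose product was first described in bone and binds hydroxyapatite, was at 539 and 402 CPM in the osteoblast group, 701 and 993 in the chondrocyte group, and 616 and 455 in the tendon group. The other 3 groups lay at 48.4 CPM or lower in both mice, and the old pericyte or smooth muscle group held 0 Omd UMIs, a count that allows up to 3. Osteoblast and tendon groups did not differ beyond their spread for Omd (log2 -0.06, SE 0.362, adjusted p = 0.944). The osteoblast group exceeded the fibroblast group by 3.74 (SE 0.401, adjusted p = 3.67e-05).

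Fibromodulin, a collagen cross-linking regulator of tendon and cartilage, set tendon-like cells apart from fibroblast-like cells. Fmod stood at 3179.6 and 3005 CPM in the tendon group against 50.9 and 60.6 CPM in the fibroblast group. These values do not overlap, and the log2 difference was 5.77 (SE 0.413, adjusted p = 2e-05). Next came the chondrocyte group at 1145 and 1562 CPM and the osteoblast group at 575 and 427. Both mice placed the chondrocyte group below the tendon group, but the difference did not pass after adjustment (log2 -0.98, SE 0.341, adjusted p = 0.088). The osteoblast group was below the chondrocyte group by -1.54 (SE 0.347, adjusted p = 0.0103). In the fibroblast group 6.48% (95% interval 5.53 to 7.54) and 7.44% (5.91 to 9.23) of cells had an Fmod UMI, against 6.36% and 4.57% of blood cells (upper bounds 8.4% and 6.84%). Depth was not matched there. At 2000 UMIs per cell the young fibroblast share was 3.39%, against 2.09% of blood cells (upper bound 3.48%). The old fibroblast interval then lay above the blood bound of 1.60%.

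Prelp, which lacks the sulfated chains of its class and binds heparan sulfate through a basic N-terminus, was low in osteoblast-like cells. It stood at 44.2 and 29.8 CPM there, against 231 and 334 in the marrow stromal group, 376 and 331 in the fibroblast group, 650 and 925 in the chondrocyte group, and 856 and 613 in the tendon group. Both mice placed all 4 groups above the osteoblast group. The osteoblast group was below the mean of the others by a log2 difference of -3.02 (SE 0.242, adjusted p = 8.06e-06), and the marrow stromal group was above it by 2.67 (SE 0.262, adjusted p = 1.87e-05). Chondrocyte and tendon groups did not differ beyond the spread (log2 0.29, SE 0.244, adjusted p = 0.498).

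Keratocan, best known from the corneal stroma, had its highest level in tendon-like cells. Kera had 277 young and 372 old UMIs in the tendon group, or 176 and 243 CPM, which was 47.9% and 65.0% of all Kera UMIs of the libraries. Ungrouped cells held a further 43.9% and 23.1%. The fibroblast group held 35 and 23 UMIs, the osteoblast group 0 and 27, and the pericyte or smooth muscle group 0 and 0. For Kera the tendon group exceeded the fibroblast group by a log2 difference of 6.88 (SE 0.480, adjusted p = 2.52e-05), and the chondrocyte group lay below the tendon group (log2 -4.22, SE 0.552, adjusted p = 0.000939). Even so, Kera was seen in 11.9% of young (95% interval 7.6 to 17.4) and 17.7% of old tendon-like cells (95% interval 11.2 to 26.0), and 1 old cell held 28.8% of the old UMIs. Among blood cells it was seen in 1 of 481 old and 0 of 723 young cells, the latter allowing at most 0.509% (upper 95% bound).

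Osteoglycin, a class III member found in bone and in many connective tissues, followed another order. Ogn stood at 2479.6 and 2174 CPM in the tendon group, 875 and 806 in the fibroblast group, 476 and 627 in the marrow stromal group, and 324 and 131 in the osteoblast group. The osteoblast group was below the mean of the others (log2 -1.36, SE 0.268, adjusted p = 0.00361), as was the chondrocyte group at 191 and 270 CPM (log2 -1.18, SE 0.273, adjusted p = 0.0103). These 2 groups did not differ from each other beyond the spread (log2 -0.14, SE 0.323, adjusted p = 0.814). The tendon group exceeded the fibroblast group by 1.46 (SE 0.312, adjusted p = 0.0112).

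Epiphycan, a cartilage proteoglycan of class III, was the rarest member. Epyc had 88 young and 18 old UMIs in the chondrocyte group, or 53.7 and 20.8 CPM, where 17.0% (95% interval 11.7 to 23.4) and 7.55% (95% interval 2.09 to 18.2) of cells held a UMI. The tendon group had 36 and 33 UMIs, all from 5 cells in each library. For Epyc the chondrocyte group exceeded the fibroblast group by a log2 difference of 3.16 (SE 0.669, adjusted p = 0.00632), while its difference of 1.08 from the tendon group was within the spread (SE 0.668, adjusted p = 0.344). No Epyc UMI was seen in the pericyte or smooth muscle group of either mouse, nor in 723 young and 481 old blood cells (upper 95% bounds 0.509% and 0.764% of cells).

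**Figure D2:**
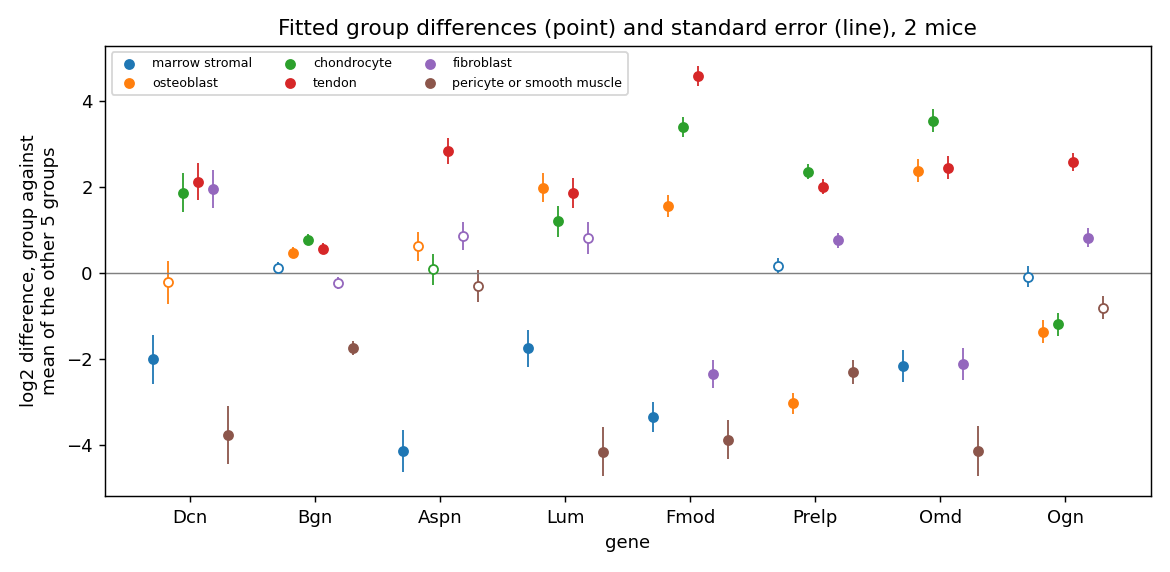
Log2 difference of the 8 proteoglycan genes with UMIs in every group, between 1 mesenchymal group and the mean of the other 5, as points with bars of 1 SE, filled where the adjusted p was under 0.05. Fmod runs from 4.58 in the tendon group to -3.86 in the pericyte or smooth muscle group, and Prelp is at -3.02 in the osteoblast group.

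Most of the family lies in short chains of neighbouring genes. In the GRCm38.p6 annotation, Prelp (chr1:133910304-133930102) and Fmod (chr1:134037254-134048280) are 107 kb apart. On chromosome 10, Dcn (chr10:97479500-97518163), Lum (chr10:97565501-97572703), Kera (chr10:97606962-97613688) and Epyc (chr10:97644068-97681908) follow each other, and on chromosome 13 so do Aspn (chr13:49544443-49567565), Omd (chr13:49582462-49592612) and Ogn (chr13:49608015-49624501). Bgn is alone on the X chromosome (chrX:73483601-73495936). No other protein-coding gene lies in any of the 6 gaps, although the 3 genes on chromosome 13 lie within the span of Cenpp.

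Neighbours did not follow a single pattern. Over 12 sums (6 groups, 2 mice) of log2(CPM + 1), Dcn and Lum had a Pearson r of 0.90, the highest of the 45 member pairs, whose median was 0.59. Omd and Ogn, 15.4 kb apart, had an r of 0.04, the lowest of the 45, and Aspn and Omd, 14.9 kb apart, an r of 0.34. The remaining neighbours had an r of 0.43 (Prelp and Fmod), 0.57 (Lum and Kera) and 0.75 (Kera and Epyc). The points share libraries and cell groups, so these values describe the 2 mice. In the osteoblast group Omd was higher than in the other groups (log2 2.38, SE 0.269, adjusted p = 9.5e-05), its neighbour Ogn lower (-1.36), and Aspn between them in the test, at 0.63 (SE 0.345, adjusted p = 0.226). Prelp and Fmod differed in the same way, since the osteoblast group was lower for Prelp (-3.02) and higher for Fmod (1.56, SE 0.251, adjusted p = 0.00103).

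**Figure D3:**
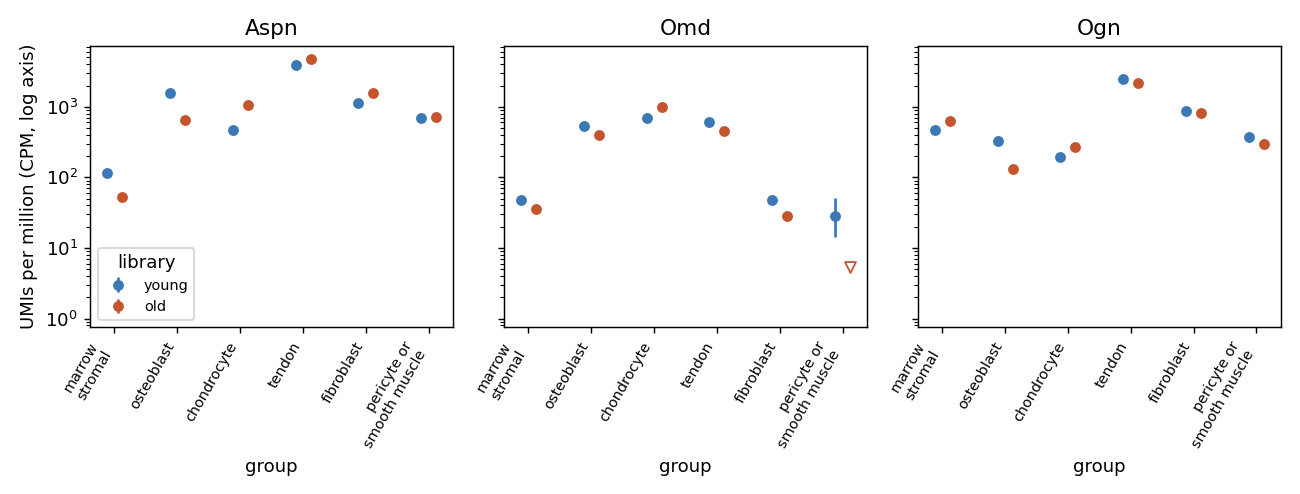
Levels of the chromosome 13 neighbours Aspn, Omd and Ogn in CPM on a log axis over the 6 mesenchymal groups, a point per library with its 95% counting interval and an open triangle at the floor of 3 UMIs where a group held none. In the osteoblast group Omd (539 and 402 CPM) stands high while Ogn (324 and 131 CPM) stands below its own marrow stromal level of 476 and 627 CPM.

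The promoters of the chromosome 13 neighbours are shown because the 3 genes lie side by side and yet have different orders of levels. Sequences are RefSeq's, 250 bases before to 50 after an annotated start, on GRCm38.p6, and read 5' to 3' along the gene. Promoters were found for 8 of the 10 genes, with none given for Dcn and Lum. Capitals mark matches to 3 motifs sought on both strands: the TATA box core TATAAA (reverse TTTATA), the E-box CANNTG, and TGTGGT (reverse ACCACA), the core bound by Runx factors.
Aspn promoter (chr13:49544193-49544492, plus strand): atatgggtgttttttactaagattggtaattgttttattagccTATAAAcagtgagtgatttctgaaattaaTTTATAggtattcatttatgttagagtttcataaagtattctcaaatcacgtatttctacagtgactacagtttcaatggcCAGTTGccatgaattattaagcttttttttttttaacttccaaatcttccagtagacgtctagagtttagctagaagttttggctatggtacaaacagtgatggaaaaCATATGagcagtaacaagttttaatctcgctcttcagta
Omd promoter (chr13:49582212-49582511, plus strand): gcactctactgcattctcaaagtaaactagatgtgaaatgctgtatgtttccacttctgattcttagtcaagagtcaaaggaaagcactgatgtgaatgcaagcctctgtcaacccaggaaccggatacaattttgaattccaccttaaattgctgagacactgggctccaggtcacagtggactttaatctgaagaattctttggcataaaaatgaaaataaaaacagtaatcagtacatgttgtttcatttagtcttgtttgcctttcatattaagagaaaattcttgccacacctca
Ogn promoter (chr13:49607765-49608064, plus strand): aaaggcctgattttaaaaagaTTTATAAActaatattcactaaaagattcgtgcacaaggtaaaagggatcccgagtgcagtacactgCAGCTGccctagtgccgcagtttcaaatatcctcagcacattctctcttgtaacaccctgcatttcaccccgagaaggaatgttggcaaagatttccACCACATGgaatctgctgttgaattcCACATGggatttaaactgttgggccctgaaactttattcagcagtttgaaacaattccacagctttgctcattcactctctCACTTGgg

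The Omd promoter held none of the 3 motifs. The Aspn promoter held 2 TATAAA matches, 207 and 178 bases before the start, and 2 E-boxes. The Ogn promoter held 4 E-boxes, 1 TGTGGT 65 bases before the start that overlaps an E-box, and 2 TATAAA matches 229 and 227 bases before the start that overlap on opposite strands. Of 32851 RefSeq promoters of this length, 13.6% held TATAAA, 72.3% CANNTG and 16.8% TGTGGT. Each match is only a run of letters, and the lack of one says nothing of other bases or of a factor.

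The chromosome 1 neighbours, which also went opposite ways in osteoblast-like cells, are given in the same form. Each held 1 E-box and neither of the other motifs. The Prelp promoter lies inside the annotated span of its gene (chr1:133910304-133930102), so it belongs to an internal start.
Prelp promoter (chr1:133921352-133921651, minus strand): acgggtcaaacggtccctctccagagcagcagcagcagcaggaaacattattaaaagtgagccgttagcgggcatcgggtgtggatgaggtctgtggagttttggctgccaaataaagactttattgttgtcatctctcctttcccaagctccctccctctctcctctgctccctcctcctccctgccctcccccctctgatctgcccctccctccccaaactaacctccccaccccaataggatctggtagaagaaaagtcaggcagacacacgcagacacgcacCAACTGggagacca
Fmod promoter (chr1:134037004-134037303, plus strand): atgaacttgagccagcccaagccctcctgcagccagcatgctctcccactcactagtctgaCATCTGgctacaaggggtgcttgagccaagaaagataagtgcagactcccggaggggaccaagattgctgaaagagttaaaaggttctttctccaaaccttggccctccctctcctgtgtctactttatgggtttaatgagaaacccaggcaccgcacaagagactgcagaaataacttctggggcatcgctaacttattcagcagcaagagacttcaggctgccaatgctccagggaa

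Enzymes that build the sugar chains and collagens that bind the proteoglycans were followed in 4 lists. Of the 21 makers of chondroitin or dermatan sulfate, 10 were higher (background 13.2%) and 2 lower (background 8.49%) in the chondrocyte group. Their median log2 there was 0.83 over the 19 with UMIs in every group (all genes 0.03). Xylt1, which adds the first sugar of the chain, stood at 279 and 256 CPM there (log2 4.32, SE 0.109, adjusted p = 1.11e-09), Csgalnact1, which commits a chain to chondroitin, at 63.5 and 69.2 (3.83, SE 0.256, adjusted p = 2.04e-06), and the sulfotransferase Chst11 at 202 and 98.1 (3.28, SE 0.245, adjusted p = 4.88e-06). In the tendon group 7 were higher (background 9.63%) and 2 lower (background 2.97%). Among the former was Dse, the epimerase that turns chondroitin into dermatan sulfate, at 107 and 112 CPM (log2 1.28, SE 0.148, adjusted p = 0.000241). The counts were 6 higher and 3 lower in the osteoblast group (background 14.7% and 10.8%), and 6 and 5 in the fibroblast group (17.3% and 10.1%). They were 5 and 6 in the marrow stromal group (25.7% and 18.1%), and 0 and 11 in the pericyte or smooth muscle group (13.2% and 11.8%). Chst15, a sulfotransferase of chondroitin, was higher in the marrow stromal group, at 138 and 155 CPM (log2 2.51, SE 0.106, adjusted p = 3.18e-08).

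Keratan sulfate makers took another order, with 6 of 8 tested. In the marrow stromal group 4 were higher and 1 lower (background 25.7% and 18.1%), and in the osteoblast group 2 and 2 (14.7% and 10.8%). The chondrocyte group had 2 and 1 (13.2% and 8.49%), the fibroblast group 1 and 1 (17.3% and 10.1%). The pericyte or smooth muscle group had 1 and 1 (13.2% and 11.8%), and the tendon group 0 and 0 (9.63% and 2.97%). In the tendon group, where 9.63% of all genes tested were higher, the median log2 difference of the makers with UMIs in every group was 0.69 (all genes 0.03). Chst2, a keratan sulfate sulfotransferase, stood at 66.9 and 78.6 CPM in the marrow stromal group (log2 1.90, SE 0.156, adjusted p = 3.79e-06), and Chst1 at 53.7 and 204 CPM in the chondrocyte group (log2 4.60, SE 0.391, adjusted p = 1.31e-05).

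Of 16 fibrillar collagen and procollagen processing genes tested, 12 were higher and 1 lower in the osteoblast group (background 14.7% and 10.8%). Their median log2 there was 1.45 over the 15 with UMIs in every group. The tendon group had 7 and 1 (9.63% and 2.97%), the fibroblast group 7 and 3 (17.3% and 10.1%). The chondrocyte group had 5 and 3 (13.2% and 8.49%), the marrow stromal group 3 and 8 (25.7% and 18.1%). In the pericyte or smooth muscle group the counts were 0 and 13 (13.2% and 11.8%). Col2a1 and Col11a2 were also chondrocyte markers, so they count among the genes that set that group. Both were also higher in the osteoblast group, Col2a1 at 237 and 585 CPM and Col11a2 at 303 and 973 CPM. The summed chondrocyte markers stood at 734 (young) and 1693.5 CPM (old) in the osteoblast group. Col1a1, the main collagen of bone and tendon, stood at 32519 and 66564 CPM in the osteoblast group (log2 4.24, SE 0.234, adjusted p = 5.34e-07) and at 10085 and 13827 CPM in the tendon group (1.67, SE 0.252, adjusted p = 0.00141). Among 7 tested genes of the wider leucine-rich repeat family, 3 were higher (background 13.2%) and 1 lower (background 8.49%) in the chondrocyte group. The former were led by Chad (chondroadherin, a cartilage protein) at 6235 and 4229.8 CPM (log2 7.06, SE 0.326, adjusted p = 1.01e-07). Podn was higher in the fibroblast group at 63.9 and 85.1 CPM (2.32, SE 0.123, adjusted p = 2.87e-07), and Podnl1 in the marrow stromal group at 91.9 and 102 CPM (2.80, SE 0.172, adjusted p = 4.21e-07).

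The study stained CD24, a small surface glycoprotein, to set CD24+ cells beside CD24- cells. Over the 6 mesenchymal groups, 442 young and 163 old cells were CD24+. Pooled over the groups, CD24+ cells carried more of the class II members Lum, Fmod and Omd and less Ogn and Dcn. Of the 10 members, 4 were higher (background 5.78% of 14940 genes) and 2 lower (background 4.65%) by edgeR's quasi-likelihood test with the mouse as a block. Omd stood at 418 CPM in CD24+ and 110 CPM in CD24- cells of the young mouse and at 314 and 121 CPM in the old (log2 1.73, SE 0.130, adjusted p = 0.0017). Fmod stood at 601 against 208 CPM and 464 against 242 CPM (1.31, SE 0.134, adjusted p = 0.00376). Lum stood at 2547 against 1324 CPM and 2546 against 1553 CPM (0.90, SE 0.0713, adjusted p = 0.00191). For each of these genes both CD24+ sums lay above both CD24- sums.

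Epyc, the 4th member that was higher, rested on few molecules at 6.74 against 3.22 CPM and 10.1 against 4.46 CPM (log2 1.19, SE 0.266, adjusted p = 0.0395). Ogn was lower, at 460 against 715 CPM and 393 against 671 CPM (-0.64, SE 0.0699, adjusted p = 0.00454). So was Dcn, at 7187 against 9786 CPM and 6688 against 8079 CPM (-0.29, SE 0.0647, adjusted p = 0.0385). Aspn (log2 0.39), Bgn (0.14), Prelp (-0.12) and Kera (-0.39) did not pass. Without the block the members that passed were 3 higher and 0 lower, and DESeq2 passed 3 and 1. For the other lists the background is likewise 5.78% higher and 4.65% lower. Among 21 makers of chondroitin or dermatan sulfate 4 were higher and 1 lower, and among 7 keratan sulfate makers 1 and 1. Among 17 collagen genes 8 were higher and 1 lower, and among 8 genes of the wider repeat family 2 and 1. Chad, of the last list, stood at 1089 against 257 CPM and 451 against 109.7 CPM (log2 2.13, SE 0.0697, adjusted p = 0.000125).

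The cell groups were mixed differently in CD24+ and CD24- cells. Osteoblast-like cells were 30.5% of young and 36.8% of old CD24+ cells against 8.26% and 10.4% of CD24- cells, and chondrocyte-like cells 13.6% and 11.0% against 1.82% and 1.03%. CD24+ cells were also deeper, with medians of 8964 and 13882 UMIs against 6092 and 9595. When CD24- cells were weighted to the group mix of the CD24+ cells of the same mouse, the log2 difference of Omd went to 0.73 (young) and 0.01 (old), that of Fmod to 0.49 and -0.02, and that of Lum to 0.43 and 0.35. Ogn went to -0.27 and -0.25, Dcn to -0.11 and -0.33, and Epyc to -0.61 and 1.27. These weighted values have no test. Single groups did not all go the pooled way (log2 of CD24+ over CD24-, young and old). Fmod was -0.27 and -0.36 in the tendon group, 0.05 and -1.46 in the chondrocyte group, and 1.58 and 0.66 in the fibroblast group. Omd was -1.33 and 0.91, 0.75 and -1.41, and 0.98 and -2.20 in the same order. Lum was 0.12 and 0.65, -1.54 and -0.20, and 0.06 and -0.09. The tendon values rest on 11 young and 5 old CD24+ cells.

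Within the osteoblast group alone, 135 young and 60 old cells were CD24+, beside 504 and 352 CD24- cells. Here 5 of 8 tested members were higher (background 1.76% of 10673 genes) and 0 lower (background 1.53%), and they came from all 3 classes. Fmod stood at 905 CPM in CD24+ against 447 CPM in CD24- cells of the young mouse and at 691 against 378 CPM in the old (log2 0.92, SE 0.115, adjusted p = 5.21e-13). Aspn stood at 2721 against 1130.1 CPM and 785 against 635 CPM (0.77, SE 0.103, adjusted p = 2.05e-11), a call lost under the 10% mitochondrial limit (0.75, adjusted p = 0.167). Ogn, which was lower over all groups together, stood at 479 against 264 CPM and 191 against 120 CPM (0.75, SE 0.133, adjusted p = 3.05e-06). The CD24+ value was the higher one in both mice for each of these genes.

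Omd stood at 791 against 440 CPM and 565 against 371 CPM (log2 0.70, SE 0.117, adjusted p = 3.29e-07), and Lum at 5857 against 3505 CPM and 3707 against 2336 CPM (0.68, SE 0.0836, adjusted p = 2.74e-13). Dcn, Bgn and Prelp had log2 differences of 0.11, 0.07 and -0.03 and did not pass. Kera and Epyc were too sparse for the test, with 0 and 27 Kera UMIs and 4 and 4 Epyc UMIs in the young and old osteoblast group. Of 16 collagen genes tested, Col3a1 was the 1 that was higher (background 1.76%), while 5 were lower (background 1.53%). Of 6 genes of the wider repeat family, 1 was higher (Ecm2) and 1 lower. The fit has 4 sums and 1 residual degree of freedom, so its p-values lean on spread borrowed from other genes: without the block 0 genes passed edgeR (468 at an unadjusted p under 0.05), and DESeq2 passed 2 members, Lum and Fmod. The summed tendon markers were also higher in CD24+ osteoblast-like cells, at 582 against 343 CPM and 245 against 178 CPM, the summed osteoblast markers lower, at 21931 against 24870 CPM and 33453 against 40744 CPM, and the part of either in the result was not tested.

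Osteoblast-like cells were not alike in their proteoglycans. They were split, after the data had been seen, by a UMI of Dmp1 or Ifitm5, which are genes of late osteoblasts and early osteocytes. Such a UMI was found in 44.3% of young (95% interval 40.4 to 48.2) and 59.5% of old cells (95% interval 54.55 to 64.25). Aspn stood at 208 CPM in cells with and 3070.0 CPM in cells without such a UMI in the young mouse, and at 72.2 and 2227 CPM in the old. Fmod stood at 111 and 1083 CPM and at 72.4 and 1376 CPM. Lum stood at 1592 and 6974 CPM and at 1094 and 6454 CPM.

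Members of every class were lower in cells with a late marker, and not by the same size. On the log2 scale, cells with a late marker differed by -3.88 and -4.95 for Aspn, -3.29 and -4.25 for Fmod, -2.84 and -2.56 for Ogn, -2.13 and -2.56 for Lum, and -1.62 and -1.82 for Omd in young and old cells respectively. Dcn differed by -0.61 and -0.59 and Bgn by 0.17 and -0.12, so the member with the narrowest range between groups was also nearly even here. Bglap (osteocalcin), a marker of the group, went the other way, at 11769 with and 3783 CPM without a late marker in the young mouse. Postn and Tnn, which are outside the family, were lower as well, by -2.85 and -2.58 and by -3.15 and -3.75 (young and old). The share of all genes that were lower was not counted, so the drop is not shown to be particular to the family. Cells with a late marker were deeper, with medians of 7314 against 5852 UMIs (young) and 16668 against 10140 UMIs (old). Since both genes belong to the marker list that set the group, the split is a description and has no test.

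**Figure D4:**
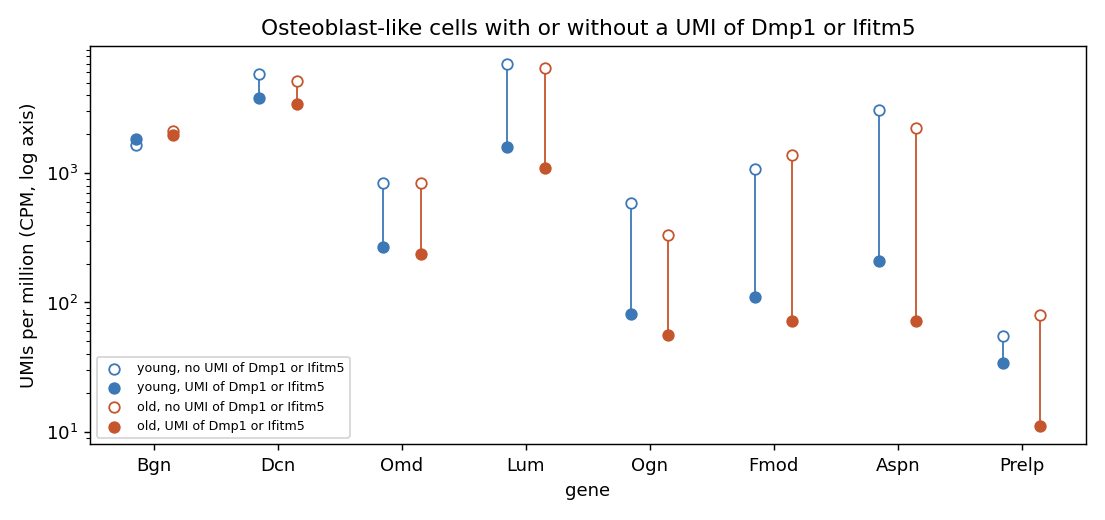
Level of 8 proteoglycan genes (all but Kera and Epyc) in osteoblast-like cells with (filled) and without (open) a UMI of Dmp1 or Ifitm5, in CPM on a log axis, for the young and the old mouse. Aspn, Fmod and Ogn lie far below their level in cells without a late marker, and Bgn stays near 1849 and 1645 CPM in the young mouse.

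CD24+ osteoblast-like cells had a late marker less often in the young mouse, in 30.4% (95% interval 22.8 to 38.9) against 48.0% of CD24- cells (43.6 to 52.5), while the old mouse had 55.0% (41.6 to 67.9) against 60.2% (54.9 to 65.4). Among cells without a late marker, CD24+ minus CD24- on the log2 scale was 0.40 and 0.34 for Fmod, 0.37 and 0.38 for Omd, 0.18 and 0.35 for Lum, 0.30 and 0.81 for Ogn, and 0.64 and -0.06 for Aspn. Among cells with one it was 1.64 and 1.97 for Fmod, 1.10 and 0.55 for Omd, 1.19 and 0.69 for Lum, 1.10 and -1.02 for Ogn, and 2.05 and 0.29 for Aspn. Fmod, Omd and Lum were higher in CD24+ cells in both subsets of both mice, and Aspn and Ogn in 3 of 4. These genes had passed the CD24 test on the same cells, so their signs are not a separate check. The share of all genes with such signs was not counted. For tested members that had not passed, values without and then with a late marker follow (young and old). Dcn was 0.06 and 0.32, then 0.56 and -0.54. Prelp was -0.51 and 0.13, then 0.34 and -2.13 (the last on 2 CD24+ UMIs). Bgn was 0.08 and 0.14, then 0.13 and 0.11.

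Old and young libraries could be set side by side but not tested, since each age is 1 mouse. Intervals cover counting error of UMIs only, and a gene counted where both libraries together held at least 10 of its UMIs. Of 55 such pairs of member and group, 5 were past 2-fold higher and 9 past 2-fold lower in the old library. Among all counted genes, between 3.08% (tendon) and 9.06% (pericyte or smooth muscle) of a group were higher. Between 2.99% (fibroblast) and 10.5% (chondrocyte) were lower. The 9 lower pairs went to 4 in cells thinned to 2000 UMIs. In the tendon group 0 of 10 members passed 2-fold in either direction (background 3.08% higher and 5.32% lower of all counted genes).

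In the osteoblast group Aspn and Ogn were lower in the old library (2 of 9 members, background 6.34%). Aspn stood at 1576 CPM in the young and 659 CPM in the old library (log2 -1.26, interval -1.31 to -1.21), and Ogn at 324 and 131 CPM (-1.31, interval -1.43 to -1.19), which was -0.95 in cells thinned to 2000 UMIs. Within cells with a late marker the old over young difference was -1.53 for Aspn and -0.55 for Ogn, and within cells without one it was -0.46 and -0.83. These subsets were not matched for depth between the libraries. Kera was the 1 member higher in the old osteoblast group (background 3.43%), with 27 UMIs against 0, or at least 6.84-fold against a floor of 3 UMIs per library, but those 27 came from 3 cells.

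In the chondrocyte group Dcn and Aspn were higher in the old library. Dcn stood at 7651 CPM in the young and 18464 CPM in the old library (log2 1.27, interval 1.24 to 1.30), and Aspn at 470 and 1044 CPM (1.15, interval 1.01 to 1.29). With Kera (2.11, interval 0.75 to 3.63) 3 of 10 members were higher (background 6.04%), and Epyc was the 1 that was lower (background 10.5%), at -1.37 (interval -2.19 to -0.63). Of the 16 old Kera UMIs, 14 lay in 1 cell, and without the leading cell of each library the difference was -0.08. The old group held 53 cells against 171, and its marker sums differed too, with 13706 and 11381 CPM of chondrocyte markers and 9120 and 13575 CPM of osteoblast markers in the young and old library. Their part in the difference was not tested.

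In the marrow stromal group 0 of 8 members were past 2-fold higher (background 3.36%) and 2 were lower (background 3.97%). Fmod stood at 50.5 and 21.8 CPM (log2 -1.21, interval -1.40 to -1.03) and Aspn at 117 and 52.2 CPM (-1.16, interval -1.28 to -1.04). Aspn went to -0.63 when predicted doublets were removed and to -0.96 in thinned cells, and both genes lay at the blood-cell share of cells with a UMI. In the fibroblast group Epyc was the 1 of 10 members higher (background 3.88%), at 1.94 and 9.61 CPM (2.31, interval 1.79 to 2.86), with 22 cells holding a UMI in each library, and 0 were lower (background 2.99%). In the pericyte or smooth muscle group 0 of 8 were higher (background 9.06%) and 4 lower (background 5.34%): Dcn (log2 -2.99), Lum (-2.29), Fmod (-1.63) and Omd (11 against 0 UMIs, at least 5.29-fold lower). Dcn went to -0.23 there without predicted doublets, and all 4 genes lay at the blood-cell share.

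**Figure D5:**
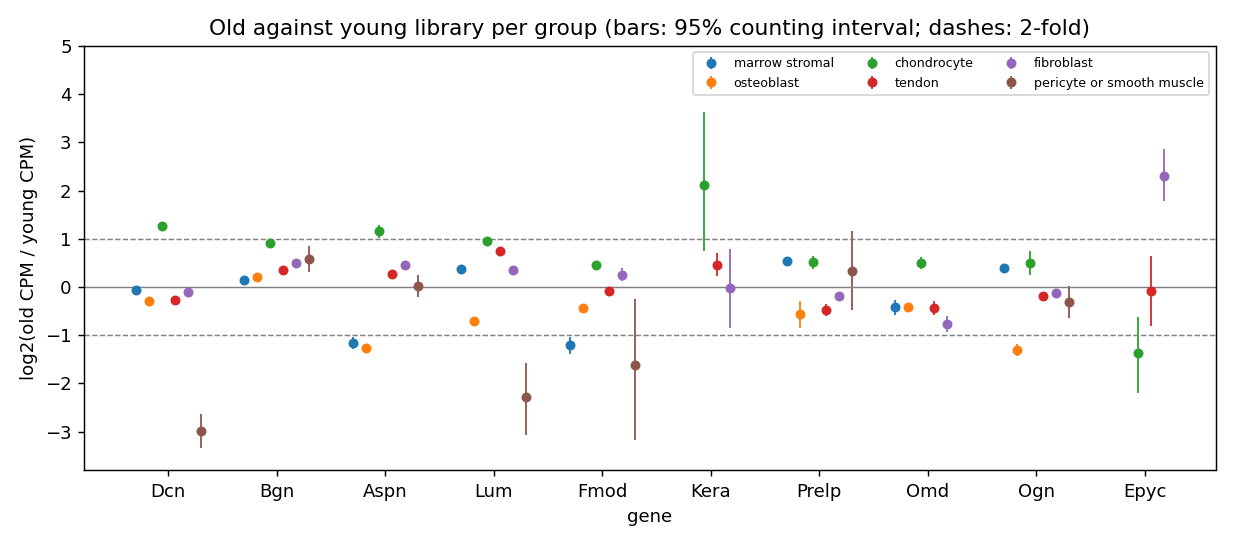
Log2 ratio of the old over the young library for each proteoglycan gene and mesenchymal group, as points with 95% counting intervals and dashed lines at 2-fold, for pairs with at least 10 UMIs and a UMI in both libraries. All tendon points lie between the lines, Aspn is below them in the osteoblast group (-1.26) and above them in the chondrocyte group (1.15).

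Genes whose levels ran most like each member's were sought among 11173 genes over the same 12 sums. For Kera the closest was Scx (Pearson r 0.94), a tendon transcription factor that was also a marker of the tendon group, followed by Met (0.93). Dcn ran closest to Lefty1 and Igfbp6 (0.97 and 0.96), Bgn to Srpx2 (0.97) and Tmem45a (0.95), and Aspn to Angptl2 and Nbl1 (both 0.94). Lum ran closest to Tmem119 (0.97) and Ptn (0.96), Fmod to Bcl11b (0.98) and Retreg1 (0.97), Omd to Tmx1 (0.95) and Tnn (0.94), and Prelp to Zbtb20 (0.97). Ogn ran closest to Atp6ap2 (0.96) and Epyc to Chil1 (0.98). The points share libraries and groups, and with 12 of them and this many genes searched a high r is a description only.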

How the data were processed

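Cells of femur and tibia from 1 young and 1 old mouse were measured by CITE-seq with 10x Genomics 3' chemistry. The deposited values are raw counts, whole numbers of UMIs for 32285 genes and 1 antibody (CD24) in each cell, written by Cell Ranger 6.1.1 per the file headers. The submitters' processing notes name mm10, R 4.0.3 and Seurat 4.0. The deposited counts are not normalized. No source used here gives the strand setting of the counting, and reads of overlapping or antisense genes, such as Cenpp over Aspn, Omd and Ogn, cannot be told apart.

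Barcodes under 200 genes (588 young, 298 old) or over 20% mitochondrial UMIs (1306, 1117) were left out, following the study's methods, and no expression table other than these raw matrices was used. Predicted doublets (Scrublet in scanpy 1.11.5, 269 and 57 cells) were kept. A cell joined a group where at least 3 of its markers were seen and its score, the mean of log2(1 + counts per 10000) scaled to each marker's 99th percentile, was at least 1.5 times the next. This rule was set after marker UMIs had been seen, without values of the proteoglycans. It left 2676 young and 1495 old cells ungrouped and joint-lining-like cells (50 and 17) unused, since a group needed 50 cells in each library. CD24+ cells exceeded the Otsu threshold of the log antibody count (over 312 and 397 antibody UMIs), which gave 1573 and 760 CD24+ cells, and 967 and 388 cells lay within 1.5-fold of it.

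UMIs were summed per mouse and group (12 sums) or per mouse and CD24 status (4 sums), because cells are not replicates. Tests were edgeR 4.0.16's quasi-likelihood F test (TMM, filterByExpr, two-sided, mouse as a block, R 4.3.3), with Benjamini-Hochberg adjustment over all genes tested and a threshold of 0.05. The mouse pairs the sums, since they come from the same animal. The p-values rest on 2 mice and on spread shared between genes. In the CD24 fit of osteoblast-like cells the spread was wholly the trend over all genes, with no weight on a gene's own. The test scripts were tested on simulated data. Ages, 1 mouse each, had no test: ratios past 2-fold among genes with at least 10 UMIs were counted. Intervals are exact, at 95%, for counts (Poisson) and shares (Clopper-Pearson), and cover counting error only. Thinning to 2000 UMIs per cell left out shallower cells. Alternatives were DESeq2 1.42.0, its size factors in edgeR, no filter, no block, a 10% mitochondrial limit, doublets removed, a ratio of 2 for groups, and a mixture threshold for CD24 (scikit-learn 1.9.0). Promoters and gene positions are RefSeq's on GRCm38.p6.

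The 10 proteoglycans and the 4 gene lists were chosen with earlier results of these data known. All 10 members are described. A gene of another list is named only where it passed the test in that comparison, at most 4 per list by the size of the log2 difference. Genes with like levels, the split by Dmp1 or Ifitm5 and levels without the leading cell are descriptions, the last 2 chosen after the values were seen.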

Additional observations from a re-analysis of the deposited data

Results flagged for a closer look

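Members past 2-fold in 1 direction in 1 cell group and past 2-fold in the other direction in another are listed here. With 1 mouse per age, no difference between groups was tested. Aspn, old over young on the log2 scale, was -1.16 in the marrow stromal group and -1.26 in the osteoblast group but 1.15 in the chondrocyte group, and the marrow stromal value was -0.63 without predicted doublets. Dcn was 1.27 in the chondrocyte group and -2.99 in the pericyte or smooth muscle group, where 1 cell held 86.1% of the young Dcn UMIs and the value was -1.68 without the leading cell of each library and -0.23 without predicted doublets. Epyc was -1.37 in the chondrocyte group, on 88 young and 18 old UMIs, and 2.31 in the fibroblast group, on 40 and 132 UMIs.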

How the results depend on the processing

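Of 229 recomputed counts of calls, 208 stayed within 1.5 times the reported value. In the group comparison, genes lower in the tendon group went from 387 to 631 with no filter on low counts, and members higher in the fibroblast group from 3 to 6 with no filter and to 5 with doublets removed. The mouse was the replicate block. In CD24+ against CD24- mesenchymal cells, genes higher went from 864 to 540 under DESeq2, 1344 with no filter and 158 with no replicate block, and genes lower from 695 to 355, 1512 and 62. Members lower there went from 2 to 1 under DESeq2, 1 with the mixture threshold and 0 with no replicate block. With CD24- cells weighted to the group mix, Fmod was -0.0193 in the old and Epyc -0.61 in the young mouse, against 1.31 and 1.19. Within osteoblast-like cells, members higher went from 5 to 2 under DESeq2 and 0 with no replicate block. Genes higher went from 188 to 15 under DESeq2, 27 under the 10% mitochondrial limit and 0 with no block, and genes lower from 163 to 12, 25 and 0. DESeq2 gave no adjusted p for 5587 of 10673 genes there. Among osteoblast-like cells split by Dmp1 or Ifitm5, added after the data had been seen, Ogn was -1.02 in old cells with a late marker and Aspn -0.063 in old cells without one. Between ages, pairs past 2-fold lower went from 9 to 4 in cells thinned to 2000 UMIs (Aspn in the marrow stromal group at -0.96 and Ogn in the osteoblast group at -0.95 among those lost), and Kera in the chondrocyte group went from 2.11 to -0.0819 without its leading cells. The cause was not tested. Of 697 single member values under an alternative, 530 kept their side of the threshold or their size within error, 131 untested values moved by more than that, 23 calls were lost, 8 gained, and 5 values changed sign. Few UMIs limit Kera and Epyc, and every test rests on 2 mice.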

Other observations

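Cells that joined no group held much of the family. They were 26.6% of young and 26.7% of old kept cells, gave 1.69% and 1.66% of their UMIs to the 10 proteoglycans, and held 57.7% of young and 54.8% of old Fmod UMIs. Their median cell at 2000 UMIs held 5 young and 4 old proteoglycan mRNAs, more than the 3 of the marrow stromal group. These cells are unassigned, and the group comparisons do not use them.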
